A study of Mus musculus with 20 samples.

Results

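RAW264.7 is a mouse macrophage-like cell line, and AKR1A1 is an aldo-keto reductase that also reduces S-nitroso-coenzyme A. Whether Akr1a1 knockout (KO) changed the transcript response of these cells to classical activation was examined in 8 of the 20 RNA-seq libraries of the series, namely all those labelled RAW264.7. They fall into 4 groups of 2 libraries: wildtype unstimulated, wildtype stimulated, Akr1a1 KO unstimulated and Akr1a1 KO stimulated. Stimulated cells received 50 ng/mL lipopolysaccharide (LPS) and 10 ng/mL interferon-γ (IFNγ) for 48 h, and unstimulated cells received neither. For each gene the quantity of interest was the stimulated minus unstimulated log2 level in KO cells, less the same difference in wildtype cells. This interaction is called the response difference here. It is negative where stimulation raised a gene less, or lowered it more, in KO cells.

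The KO lines were made with Cas9 and a single guide RNA and were grown from sorted single cells, and the libraries of a group are described as clonal replicates. A difference between genotypes and a difference between the clones that represent them cannot be told apart in this design. Libraries carry the letter A or B, and no source used here says that a letter names the same clone before and after stimulation. The test was therefore run without the letter and with the letter as a block within each genotype. For both unstimulated B libraries the title says stimulated, while the treatment label and the library name say unstimulated, and the latter were followed. Nos2, which encodes the inducible nitric oxide synthase iNOS, was at 30.7 and 38.1 CPM, the counts scaled to library size, in these 2 libraries and at 4155 to 8806 CPM in the 4 stimulated libraries. The main results are given with and without them. Akr1a1 itself was at 427 and 488 CPM in unstimulated wildtype libraries A and B, 576 and 675 CPM in stimulated wildtype, 206 and 21.8 CPM in unstimulated KO and 370 and 212 CPM in stimulated KO libraries. All KO libraries lay below all wildtype libraries, and the difference was not past the threshold in either state without the block (adjusted p = 0.56 unstimulated and 0.643 stimulated). With the block it passed in unstimulated cells (log2 −2.63, adjusted p = 0.00154) and not in stimulated cells (0.192). An edit that disrupts the protein need not remove the transcript, so these counts do not measure AKR1A1 protein, for whose loss the clones were screened by immunoblot.

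Secreted and membrane proteins fold in the endoplasmic reticulum (ER) with the help of chaperones and of protein disulfide isomerases, which make and exchange disulfide bonds. When folding demand exceeds capacity, the unfolded protein response raises transcription of these helpers through the factors XBP1, ATF6 and ATF4. ATF4 is also the effector of the integrated stress response, which raises genes of amino acid synthesis and transport. In macrophages, LPS and IFNγ also induce iNOS, cytokines, chemokines and interferon-stimulated genes.

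Library totals ranged from 11876719 to 44583327 counts, and 19569 genes with at least 10 counts over the 8 libraries were tested, of 56748 listed. The first principal component of log2 CPM held 83.7% of the variance and separated stimulated from unstimulated libraries, and the second (7.38%) separated the genotypes. The third (3.61%) separated wildtype libraries A from B in both states. Of 12 macrophage markers, 11 were tested, among them Adgre1, Csf1r, Itgam, Cd68, Lyz2 and Spi1, and Mertk had under 10 counts. Their summed level was 3742 to 5350 CPM in the unstimulated libraries, 12810 and 13110 CPM in stimulated wildtype and 5824 and 9844 CPM in stimulated KO libraries. Fibroblast markers summed to at most 3.87 CPM and lymphocyte markers to at most 0.818 CPM in any library, and 5 of 9 and 9 of 12 of them had under 10 counts. The 5 neutrophil markers tested summed to 6.04 to 9.59 CPM unstimulated and to 128 to 429 CPM stimulated, and the 9 osteoclast markers to 113 to 133 CPM unstimulated and 229.6 to 1204 CPM stimulated. In both sums the highest value was that of stimulated KO library B, where Mmp9, an osteoclast marker and a matrix protease, reached 1026 CPM. Of the marker lists' members tested, 0 passed the interaction test of edgeR with or without the block, beside 3 of 32 at an unadjusted p under 0.05 and 1 by DESeq2, and the part of other cell states in the results below was not tested.

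Both genotypes responded strongly to stimulation. Stimulation changed 7377 genes in wildtype and 7675 genes in KO cells at an adjusted p under 0.05, of which 3753 (19.2% of genes tested) and 3804 (19.4%) fell. A response difference passed the same threshold in 4 genes (0.0204%) without the block. Of these, 3 were negative (0.0153%): Sdf2l1, Pdia4 and Aldh1l2. Serinc3 was positive. With the block within genotype 57 genes passed (0.291%), 20 positive (0.102%) and 37 negative (0.189%), and all 4 genes were among them. The 57 genes all had the same direction without the block. DESeq2 without the block, a second count model, called 90 (0.776% of the 11602 genes to which it gave an adjusted p), 71 of them negative (0.612%), and 38 of its calls were among the 57. At an unadjusted p under 0.05 there were 1079 genes without and 1265 with the block. The block leaves 2 residual degrees of freedom in place of 4, and the common dispersion fell from 0.0522 to 0.0246 with it.

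**Figure D1:**
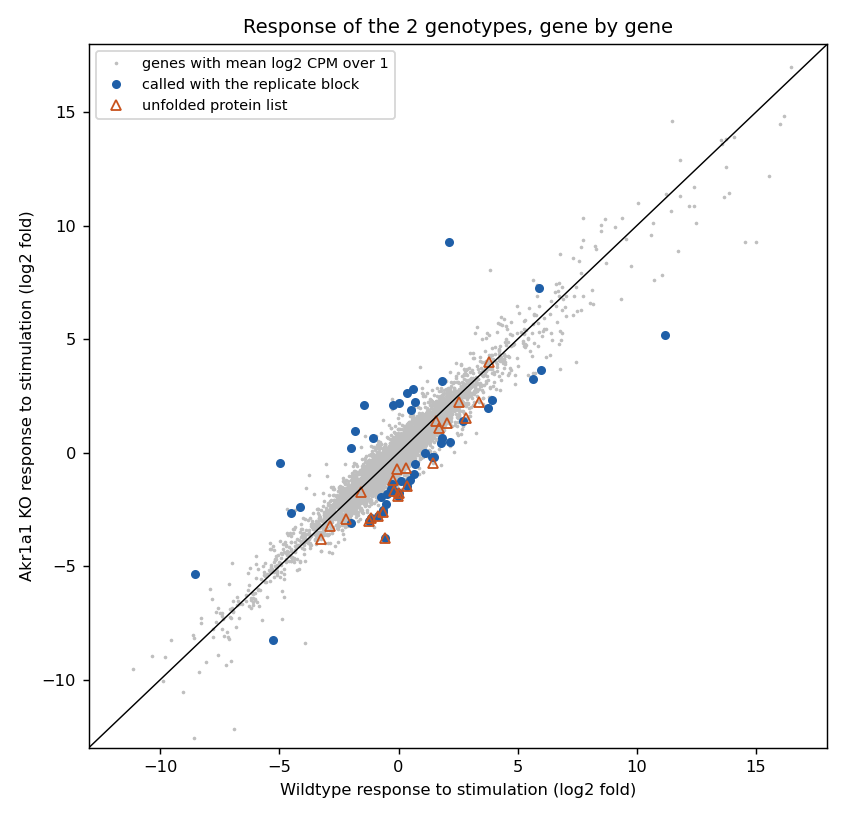
Response of each gene to stimulation in wildtype (horizontal axis) and Akr1a1 KO cells (vertical axis), both as log2 fold changes, for genes with a mean log2 CPM over 1. Most genes lie near the line of equal response, the unfolded protein list (triangles) lies mostly below it, and 51 of the 57 genes called with the block (filled circles) are expressed highly enough to be drawn.

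Serinc3, a multipass membrane protein of the serine incorporator family, had the lowest p of all genes. Its level was 1218 and 1056 CPM in unstimulated wildtype libraries A and B and 301 and 336 CPM after stimulation. In KO cells it was 99.5 and 102 CPM unstimulated and 184 and 206 CPM stimulated. Wildtype and KO libraries did not overlap in either state, and the levels moved in opposite directions: Serinc3 fell with stimulation in wildtype cells and rose in KO cells. Unstimulated KO cells held 0.0886 of the wildtype level (log2 difference −3.50 ± 0.15, SE, adjusted p = 5.81e-05) and stimulated KO cells 0.612 of it (−0.71, adjusted p = 0.124, and 0.0173 with the block). The response difference was 2.79 ± 0.20 (SE, adjusted p = 0.00922, and 0.000163 with the block). The gene (ENSMUSG00000017707) lies on chromosome 2 at 163623272 to 163645131 on the minus strand in GRCm38.

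The 3 genes with a negative response difference all take part in protein folding in the ER or in folate metabolism linked to amino acid supply, and they shared one pattern. Each was 2.98 to 5.62 times as high in unstimulated KO as in unstimulated wildtype cells and lay below wildtype after stimulation. These genes were called from the same libraries. A negative response difference itself requires a higher KO level before stimulation or a lower one after it. The shared pattern and the unstimulated differences given below therefore follow at least in part from the selection. Sdf2l1 encodes an ER-resident co-chaperone. It was at 101 and 99.4 CPM in unstimulated wildtype, 51.7 and 59.9 CPM in stimulated wildtype, 336 and 277 CPM in unstimulated KO and 45.8 and 42.6 CPM in stimulated KO libraries. The KO libraries were thus both above the wildtype libraries before stimulation and both below them after it. The response difference of Sdf2l1 was −1.95 ± 0.20 (SE, adjusted p = 0.0362, and 0.00161 with the block).

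Pdia4, a protein disulfide isomerase, was at 118 and 126 CPM in unstimulated wildtype, 68.7 and 87.7 CPM in stimulated wildtype, 376 and 349 CPM in unstimulated KO and 56.7 and 60.0 CPM in stimulated KO libraries. Its response difference was −2.0 ± 0.20 (SE, adjusted p = 0.0362, and 0.00161 with the block). Aldh1l2, the mitochondrial 10-formyltetrahydrofolate dehydrogenase and a known target of ATF4, was at 7.41 and 9.61 CPM in unstimulated wildtype, 5.06 and 6.36 CPM in stimulated wildtype, 47.9 and 47.8 CPM in unstimulated KO and 3.08 and 4.02 CPM in stimulated KO libraries. Here too the groups did not overlap in either state, with KO above wildtype before and below it after stimulation. The response difference of Aldh1l2 was −3.17 ± 0.32 (SE, adjusted p = 0.0362, and 0.00131 with the block).

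In the unstimulated state alone, KO exceeded wildtype 3.05-fold for Sdf2l1 (adjusted p = 0.00278), 2.98-fold for Pdia4 (0.0035) and 5.62-fold for Aldh1l2 (0.00315). After stimulation the ratios were 0.792, 0.746 and 0.622, and none of these 3 differences passed. In GRCm38, Sdf2l1 (ENSMUSG00000022769) lies on chromosome 16 at 17130138 to 17132383, Pdia4 (ENSMUSG00000025823) on chromosome 6 at 47796141 to 47813430 and Aldh1l2 (ENSMUSG00000020256) on chromosome 10 at 83487450 to 83534140, all on the minus strand. The sizes of the 4 response differences moved little when a library was left out (2.66 to 2.89 for Serinc3, −2.11 to −1.80 for Sdf2l1, −2.22 to −1.86 for Pdia4 and −3.42 to −3.00 for Aldh1l2), whereas the calls depended on which libraries were used. Without any 1 of the 4 KO libraries or unstimulated wildtype A, 0 genes passed. Serinc3 alone passed without unstimulated or stimulated wildtype B, and 14 genes passed without stimulated wildtype A. Without both unstimulated B libraries, which leaves 1 unstimulated library a genotype, 0 genes passed by edgeR (510 at an unadjusted p under 0.05), and the response differences were 2.90, −2.07, −2.10 and −3.38.

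**Figure D2:**
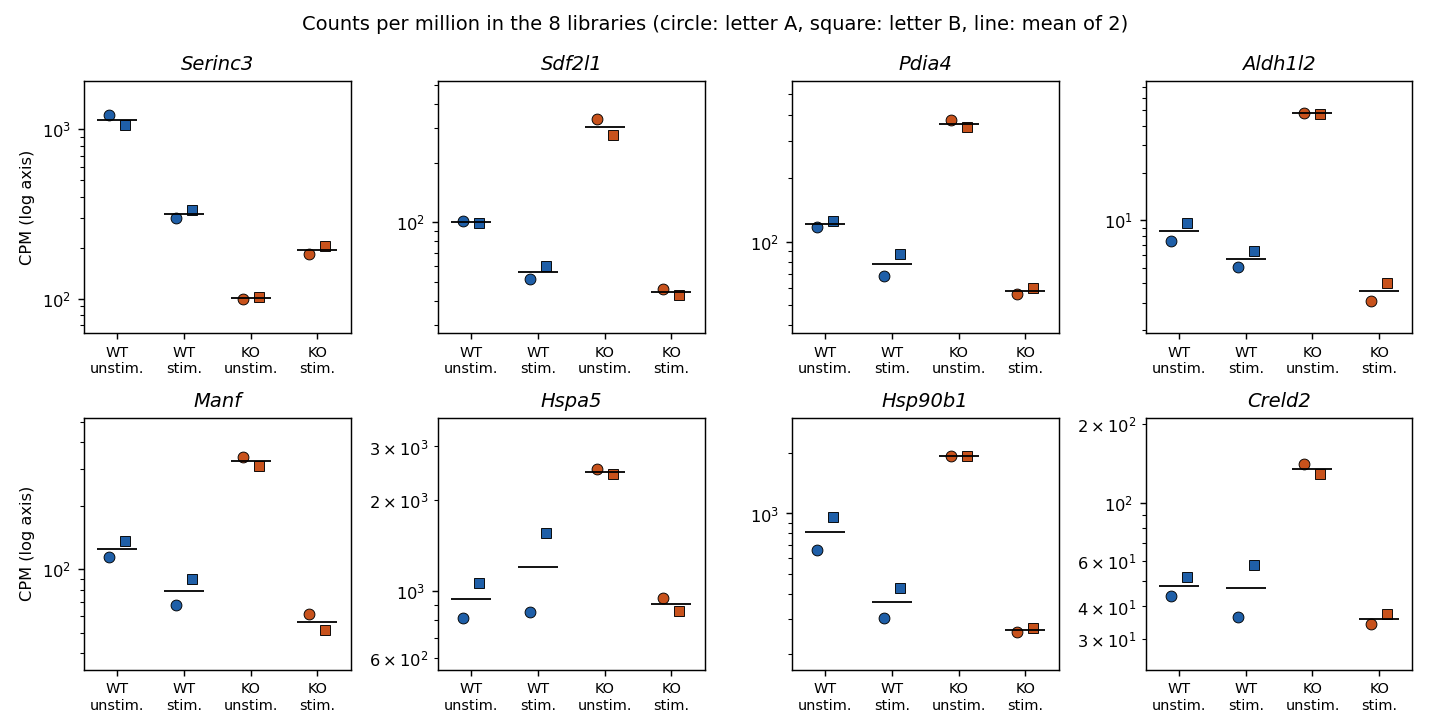
CPM of 8 genes in each library on a log axis, for wildtype (blue) and Akr1a1 KO (orange) cells, unstimulated and stimulated, with a circle for letter A, a square for letter B and a line at the mean of 2. Sdf2l1, Pdia4, Aldh1l2, Manf, Hspa5, Hsp90b1 and Creld2 are highest in both unstimulated KO libraries, and Serinc3 is lowest there.

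Most genes of the unfolded protein and integrated stress response list were higher in KO than in wildtype libraries before stimulation, and fewer were lower after it. Of 25 genes listed 24 were tested (Vldlr had under 10 counts). A negative response difference was found for 23 of the 24, beside 47.5% of all genes. The median was −1.06, beside 0.0292 over all genes tested. The list was written with earlier results of these data known and includes Sdf2l1, Pdia4 and Aldh1l2. Its counts may therefore follow in part from the choice of genes. Of the 24, 3 passed without the block, 9 with it and 13 by DESeq2, all negative. Over all genes the negative calls of these fits were 0.0153%, 0.189% and 0.612%. In unstimulated cells 8 of 24 were higher in KO than in wildtype at an adjusted p under 0.05, beside 0.23% of all genes, and in stimulated cells 0 differed by edgeR without the block (6 at an unadjusted p under 0.05 and 2 with the block), beside 0.286% of all genes. Both KO libraries lay above both wildtype libraries for 20 of the 24 in unstimulated cells (83.3%, beside 17.8% of all genes) and for 3 in stimulated cells (12.5%, beside 19.9%). After stimulation both KO libraries lay below both wildtype libraries for 11 (45.8%, beside 18.6% of all genes). The median response to stimulation was −0.05 in wildtype and −1.56 in KO cells.

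The 11 members that act in ER folding or in degradation of misfolded ER proteins were all negative, with a median response difference of −1.79. Of them, 2 passed without the block and 8 with it, beside 0.0153% and 0.189% of all genes called negative. Stimulation lowered 10 of the 11 in KO cells (beside 19.4% of all genes) and 5 in wildtype cells (beside 19.2%). Hspa5, the major ER chaperone BiP and the sensor partner of the unfolded protein response, was at 815 and 1064 CPM in unstimulated wildtype, 852 and 1554 CPM in stimulated wildtype, 2520 and 2440 CPM in unstimulated KO and 948 and 861 CPM in stimulated KO libraries. Both unstimulated KO libraries lay above all 6 others, and the stimulated groups overlapped, wildtype B being the highest of them. Its response difference was −1.81 ± 0.38 (SE, adjusted p = 0.533, and 0.00357 with the block). Hsp90b1, the ER paralogue of HSP90 (GRP94), was at 659 and 965 CPM in unstimulated wildtype, 302 and 428 CPM in stimulated wildtype, 1927 and 1933 CPM in unstimulated KO and 259 and 270 CPM in stimulated KO libraries. It fell in both genotypes, further in KO cells, with a response difference of −1.71 (adjusted p = 0.378, and 0.00205 with the block).

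Pdia6, another disulfide isomerase, was at 305 and 366 CPM in unstimulated wildtype, 122 and 163 CPM in stimulated wildtype, 812 and 943 CPM in unstimulated KO and 108 and 107 CPM in stimulated KO libraries. A response difference of −1.79 was found (adjusted p = 0.213, and 0.00205 with the block). Creld2, an ER protein with isomerase activity, was at 43.7 and 52.0 CPM in unstimulated wildtype, 36.5 and 57.5 CPM in stimulated wildtype, 141 and 129 CPM in unstimulated KO and 34.4 and 37.4 CPM in stimulated KO libraries. Creld2 did not change with stimulation in wildtype cells beyond the spread between libraries (log2 −0.03, adjusted p = 0.939) and fell by 1.91 in KO cells (adjusted p = 0.000209). The response difference itself, −1.88, did not pass without the block (adjusted p = 0.249) and passed with it (0.00301). Hyou1, a large ER chaperone, and Herpud1, which acts in ER-associated degradation, had response differences of −1.46 and −1.83, which passed with the block (adjusted p = 0.00664 and 0.0497) and not without it by edgeR. DESeq2 called Hyou1 without the block (3.82e-05). Xbp1, the transcription factor whose transcript is spliced in the response, was at 136 and 160 CPM in unstimulated wildtype and at 210 and 221 CPM in unstimulated KO libraries. Its response difference of −0.97 did not pass in either fit of edgeR (adjusted p = 0.343 and 0.0682) and passed by DESeq2 (adjusted p = 1.01e-05). The co-chaperone Dnajb9 (−0.58) and Edem1, a degradation factor (−0.16), passed neither in these 2 fits of edgeR nor by DESeq2.

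Among the 13 members tested that belong to the amino acid and integrated stress arm, 12 were negative and the median was −0.71. Aldh1l2 passed without and with the block, and the other 12 passed in neither fit of edgeR. Ddit3, the stress transcription factor CHOP, was at 7.41 and 9.24 CPM in unstimulated wildtype, 82.8 and 92.1 CPM in stimulated wildtype, 23.8 and 19.8 CPM in unstimulated KO and 92.7 and 113 CPM in stimulated KO libraries. It was thus higher in unstimulated KO cells (2.62-fold, adjusted p = 0.0176) and rose with stimulation in both genotypes, with a response difference of −1.13 (adjusted p = 0.533). Chac1, a glutathione-degrading enzyme, and Trib3, a pseudokinase, both targets of this arm, had response differences of −1.91 and −1.32. Asns, the asparagine synthetase, was at 148 and 147 CPM in unstimulated KO and at 83.0 to 110 CPM in the 4 wildtype libraries (response difference −0.99, adjusted p = 0.249, and 0.0681 with the block). The serine and folate genes Psat1, Phgdh, Shmt2 and Mthfd2 ranged from −0.71 to −0.37. The transcription factors Atf4 (−0.14) and Atf3 (0.20) and the cystine transporter Slc7a11 (−0.29) had response differences smaller than their own standard errors. Sesn2, a stress-induced regulator of nutrient signalling, was at −0.76.

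**Figure D3:**
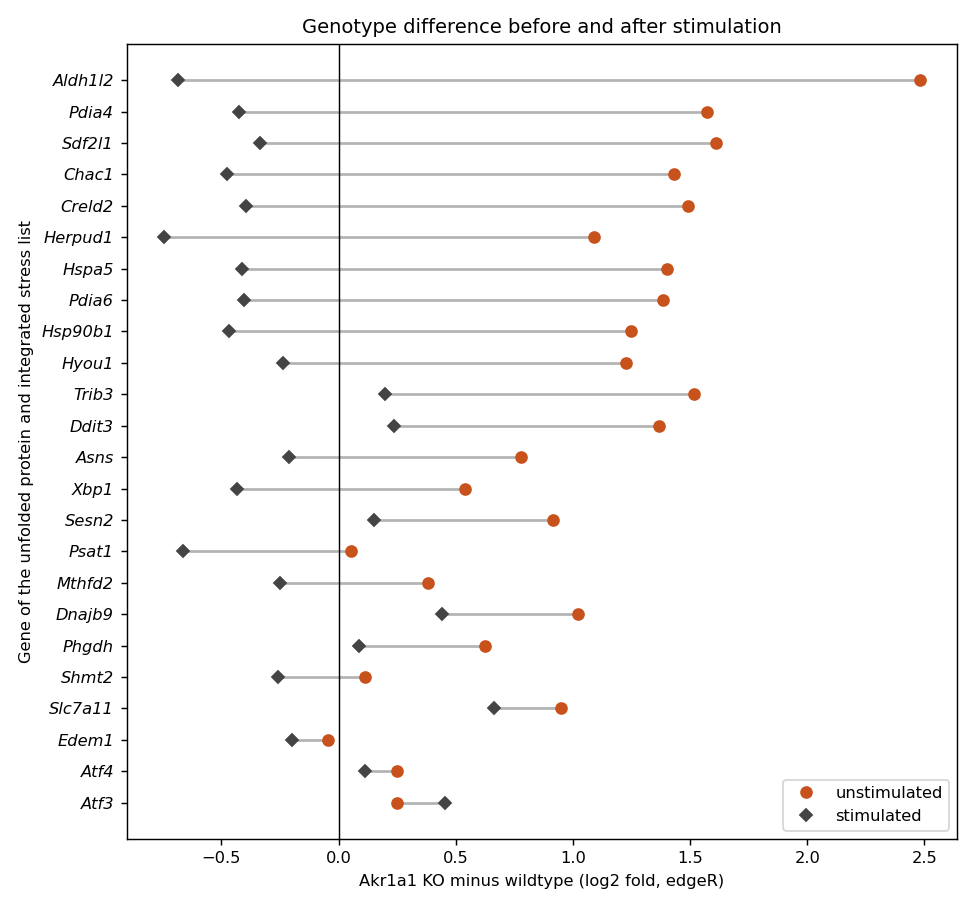
KO minus wildtype difference (log2 fold, horizontal axis) of the 24 genes of the unfolded protein and integrated stress list in unstimulated (circles) and stimulated cells (diamonds), ordered by the response difference. The diamond lies to the left of the circle for 23 genes and to the right for Atf3.

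Other genes of ER folding outside the list, chosen after their values were seen, also had negative response differences. Manf, a secreted ER stress-induced protein, was at 114 and 136 CPM in unstimulated wildtype, 68.0 and 90.1 CPM in stimulated wildtype, 340 and 310 CPM in unstimulated KO and 61.3 and 51.4 CPM in stimulated KO libraries. Its response difference was −1.86 ± 0.24 (SE, adjusted p = 0.17, and 0.00161 with the block). With the block the disulfide isomerase Pdia3 (−1.28, adjusted p = 0.0159), the lectin chaperone calreticulin Calr (−1.37, 0.0142), the co-chaperone Dnajc3 (−1.23, 0.0345) and the prolyl isomerase Fkbp2 (−1.32, 0.0497) passed as well. Dnajb11, a co-chaperone of BiP, did not pass with the block (−1.01, adjusted p = 0.0613) and was called by DESeq2 (3.15e-05). The oligosaccharyltransferase subunit Rpn1 (−1.02) and the selenoprotein Selenok (−0.90), which acts in the ER membrane, were likewise called only by DESeq2, as were the lectin chaperone calnexin Canx (−0.76) and the oligosaccharyltransferase subunit Ddost (−0.70). Slc35b1, a nucleotide transporter of the ER membrane, passed with the block (−1.17, adjusted p = 0.0497).

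Genes of this response carry an ER stress response element (ERSE) in some promoters, which NF-Y and ATF6 are known to bind. The 250 bases before the start of each gene, from RefSeq (GRCm38.p6), were searched on both strands for ERSE (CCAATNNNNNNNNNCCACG), for ERSE-II (ATTGGNCCACG), which shares the letters CCACG with it, and for the core of the unfolded protein response element (TGACGTGG). Of 32851 such windows, 37 (0.113%) held ERSE, 10 (0.0304%) ERSE-II and 185 (0.563%) the third motif. Of the 37 genes negative with the block, 30 were matched to 39 windows, and ERSE was present for 6 genes: Calr, Creld2, Dnajc3, Hsp90b1, Hspa5 and Pdia6 (15.4% of windows). ERSE-II was present for Herpud1, and 0 of the 39 windows held the third motif. Of the 20 positive genes, 16 were matched to 22 windows, and 0 windows held any of the 3 motifs. A match describes letters only, and binding was not measured.

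The windows of 4 of these genes, and that of Sdf2l1, which had the lowest p of the ER genes and no match, are shown 5′ to 3′ on the strand of the gene with ERSE in capitals. In Creld2 and at the second place in Hsp90b1 it stands on the opposite strand.
Hspa5, chr2:34771840-34772089 (+): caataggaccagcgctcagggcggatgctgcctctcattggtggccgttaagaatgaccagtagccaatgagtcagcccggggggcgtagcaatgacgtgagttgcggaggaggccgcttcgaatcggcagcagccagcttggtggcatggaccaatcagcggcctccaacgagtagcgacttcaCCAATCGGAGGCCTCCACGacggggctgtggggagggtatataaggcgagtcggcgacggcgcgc 
Hsp90b1, chr10:86705445-86705694 (-): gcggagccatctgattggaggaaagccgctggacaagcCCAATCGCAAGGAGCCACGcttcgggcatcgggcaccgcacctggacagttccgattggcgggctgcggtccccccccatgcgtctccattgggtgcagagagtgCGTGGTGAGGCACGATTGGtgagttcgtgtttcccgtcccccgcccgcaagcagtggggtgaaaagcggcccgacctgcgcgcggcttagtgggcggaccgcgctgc 
Pdia6, chr12:17266339-17266588 (+): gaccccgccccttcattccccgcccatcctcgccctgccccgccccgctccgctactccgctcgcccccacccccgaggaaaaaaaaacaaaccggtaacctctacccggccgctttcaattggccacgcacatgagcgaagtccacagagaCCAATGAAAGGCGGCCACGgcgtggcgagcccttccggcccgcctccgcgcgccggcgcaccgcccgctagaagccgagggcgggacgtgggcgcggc 
Creld2, chr15:88819396-88819645 (+): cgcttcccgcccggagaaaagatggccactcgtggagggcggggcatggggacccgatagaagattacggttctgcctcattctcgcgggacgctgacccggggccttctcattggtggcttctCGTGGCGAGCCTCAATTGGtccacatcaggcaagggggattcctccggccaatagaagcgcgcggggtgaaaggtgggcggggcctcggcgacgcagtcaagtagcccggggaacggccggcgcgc 
Sdf2l1, chr16:17132384-17132633 (-): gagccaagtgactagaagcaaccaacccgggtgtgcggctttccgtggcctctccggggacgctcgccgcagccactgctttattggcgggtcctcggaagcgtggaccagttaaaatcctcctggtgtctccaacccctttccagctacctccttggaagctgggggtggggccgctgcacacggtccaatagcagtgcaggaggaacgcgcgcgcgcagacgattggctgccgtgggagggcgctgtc

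In the other experiment of the series, in 12 libraries labelled as bone marrow-derived macrophages (the methods name RAW264.7 cells), the corresponding response difference of iNOS KO and wildtype cells was fitted separately and is set beside these values. There 20% of 18691 genes passed with a positive difference. The unfolded protein list had a median of 1.27, where the Akr1a1 experiment gave −1.06. Over all genes tested in the Akr1a1 experiment, the median of the iNOS values was −0.0191. Sdf2l1 was at 2.20 (adjusted p = 2.78e-11), Pdia4 at 1.60 (5.28e-10), Creld2 at 1.68 (2.98e-09), Hspa5 at 0.84 (1.05e-07) and Aldh1l2 at 0.99 (0.00083). Of the 24 genes, 20 were positive there and 4 negative, namely Atf4 (−0.71, adjusted p = 6.19e-06), Ddit3 (−0.76, 0.000632), Dnajb9 (−0.50) and Edem1. The 2 experiments differ in labelled cell type, depth and number of libraries. The methods give a higher IFNγ dose for bone marrow-derived macrophages than for RAW264.7 cells, with the same LPS dose. The difference between the 2 experiments was not tested. In the iNOS experiment Serinc3 had a value of −0.20 (adjusted p = 0.131).

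Further genes with a negative response difference are described singly, and no grouping of them by function was tested. In the main edgeR fit without the block, 0 genes other than the 4 named first passed, and other settings are given below. Bcl2l1 encodes the anti-apoptotic protein BCL-xL. It was at 99.0 and 102 CPM in unstimulated wildtype, 691 and 619 CPM in stimulated wildtype, 223 and 232 CPM in unstimulated KO and 549 and 635 CPM in stimulated KO libraries. Unstimulated KO cells held 2.27 times the wildtype level (adjusted p = 0.0092) and the stimulated groups overlapped. The response difference of −1.33 did not pass without the block (adjusted p = 0.213) and passed with it (0.0142). Id2, an inhibitor of helix-loop-helix transcription factors, was at 45.7 and 70.2 CPM in unstimulated wildtype, 125 and 186 CPM in stimulated wildtype and 255 to 316 CPM in all 4 KO libraries. It rose with stimulation in wildtype cells (log2 1.42, adjusted p = 0.00205) and did not change beyond the spread between libraries in KO cells (−0.17, adjusted p = 0.602). The response difference itself, −1.59, did not pass without the block (adjusted p = 0.533) and passed with it (0.00302).

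For Tmx4 and Gcsh the genotype difference passed after stimulation and not before it. Tmx4, a thioredoxin-related membrane protein of the ER, was at 60.6 and 58.5 CPM in unstimulated wildtype, 213 and 192 CPM in stimulated wildtype, 67.2 and 74.9 CPM in unstimulated KO and 94.5 and 98.6 CPM in stimulated KO libraries. The response difference of Tmx4 was −1.32 (adjusted p = 0.141, and 0.0132 with the block). Gcsh, the lipoate-carrying H protein of glycine cleavage, was at 62.6 to 84.3 CPM in the 2 wildtype groups and in unstimulated KO cells and at 31.8 and 29.1 CPM in stimulated KO libraries. The difference for Gcsh was −1.10 (adjusted p = 0.249, and 0.0497 with the block), and stimulated KO cells held 0.485 of the wildtype level (adjusted p = 0.0132).

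Bub1b, a kinase of the mitotic checkpoint, was at 229 to 321 CPM in the 4 unstimulated libraries, at 5.06 and 9.23 CPM in stimulated wildtype and at 0.469 and 1.07 CPM in stimulated KO libraries. Its response difference was −2.96 (adjusted p = 0.326, and 0.0021 with the block). With the block it was the single called gene of 30 tested in the mitosis list, where the median was 0.05 and 16 of 30 values were positive, and Nek2, another mitotic kinase, was at −2.13 without passing. Aqp9, a glycerol channel, was at 0.363 and 0.387 CPM in unstimulated wildtype and 3.06 and 4.45 CPM in unstimulated KO libraries, and the stimulated groups were at 4.61 and 2.25 CPM in wildtype and 1.61 and 2.07 CPM in KO (response difference −4.19, adjusted p = 0.0185 with the block). Spp1, the secreted phosphoprotein osteopontin, was at 14530 and 9637 CPM in stimulated wildtype and 3845 and 7616 CPM in stimulated KO libraries (−1.69, adjusted p = 0.0497 with the block).

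Anpep, a membrane aminopeptidase, was at 158 and 131 CPM in unstimulated wildtype, 493 and 310 CPM in stimulated wildtype, 208 and 172 CPM in unstimulated KO and 116 and 212 CPM in stimulated KO libraries (−1.69, adjusted p = 0.721, and 0.0485 with the block). It rose in wildtype cells (adjusted p = 0.00598), and its response in KO cells did not pass (adjusted p = 0.622). Pla2g5, a secreted phospholipase, was at 4.43 and 1.20 CPM in unstimulated wildtype and 12.9 and 16.8 CPM in unstimulated KO libraries and at 142 to 205 CPM after stimulation in both genotypes (−2.34, adjusted p = 0.0318 with the block). Serpinb1a, an inhibitor of neutrophil proteases, was at 23.0 and 15.2 CPM in unstimulated KO libraries and at most 2.69 CPM in the other 6 (−3.58, adjusted p = 0.894, and 0.03 with the block), and its value ranged from −5.70 without unstimulated wildtype A to −1.93 without stimulated wildtype A. Dap (−1.14), Syce2 (−1.12), Itgb7 (−1.79), Gpat3 (−1.58) and Tmem50b (−1.65) also passed with the block and not in the main edgeR fit without it.

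Genes with a positive response difference were mostly lower in unstimulated KO than in unstimulated wildtype cells. Among the 20 called with the block, both KO libraries lay below both wildtype libraries before stimulation for 16 (80%, beside 23.9% of all genes), while 10 had both KO libraries above both wildtype libraries after it (50%, beside 19.9%). These genes were called from the same libraries. A positive response difference itself requires a lower KO level before stimulation or a higher one after it. The excess over all genes therefore follows at least in part from the selection. St6gal1, a sialyltransferase, was at 40.9 and 43.3 CPM in unstimulated wildtype and 29.0 and 36.7 CPM in unstimulated KO libraries, and at 2.45 and 2.31 CPM in stimulated wildtype and 5.76 and 6.78 CPM in stimulated KO libraries. It fell in both genotypes, less so in KO cells, with a response difference of 1.75 (adjusted p = 0.249, and 0.0243 with the block). Tnfrsf1b, the second receptor for tumour necrosis factor, was at 26.1 and 35.4 CPM in unstimulated wildtype, 1822 and 1876 CPM in stimulated wildtype, 19.1 and 14.8 CPM in unstimulated KO and 2652 and 2430 CPM in stimulated KO libraries. It rose further in KO cells (1.33, adjusted p = 0.507, and 0.0292 with the block).

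Blnk, an adaptor of antigen receptor signalling (1.35, adjusted p = 0.0132 with the block), Rab7b, a small GTPase of late endosomes (1.70, 0.00909), and the zinc finger gene Zfp945 (1.54, 0.0485) passed with the block and not without it by edgeR, and DESeq2 called all 3 without the block. Lyl1, a helix-loop-helix transcription factor (1.16), Smad3, a transducer of transforming growth factor β (1.16), and Angptl4, an inhibitor of lipoprotein lipase (1.85), passed in neither fit of edgeR. Without the block DESeq2 called Lyl1 (adjusted p = 0.00135) and Smad3 (0.019) and not Angptl4 (0.0662). Slc4a8, a bicarbonate transporter (4.85), and Rgl1, an exchange factor for Ral GTPases (2.19), passed with the block (adjusted p = 0.0485 for each), and Slc4a8 had 1 count in unstimulated KO library A and 0 in B.

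Several of the positive genes were low in one genotype in both states. Rell1, a member of the RELT receptor family, was at 1.60 and 0.989 CPM in unstimulated and 0.0744 and 0 CPM in stimulated wildtype libraries and at 212 to 366 CPM in the 4 KO libraries, so its response difference of 4.53 rests on 1 count in stimulated wildtype library A and 0 in B. Sema5a, a semaphorin, was at 15.5 to 82.6 CPM in wildtype and 1.34 to 2.14 CPM in KO libraries (2.17, adjusted p = 0.0234 with the block). Liph, a lipase, was at 14.2 to 18.4 CPM in wildtype and 0.522 to 3.26 CPM in KO libraries (2.30, 0.0497 with the block).

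For some genes that passed with the block and not without it by edgeR, the 2 wildtype letters differed by more than 2-fold in the same direction before and after stimulation. Slamf8, a macrophage receptor of the SLAM family, was at 14.2 and 1.98 CPM in unstimulated wildtype A and B, 47.8 and 19.0 CPM in stimulated wildtype, 0.0785 and 0 CPM in unstimulated KO and 13.6 and 25.0 CPM in stimulated KO libraries. The adjusted p of its response difference was 0.753 without and 0.00571 with the block. Unstimulated KO library A held 1 count of it and library B 0, so the fitted value of 7.20 is not a measured size. Cd28, a T cell costimulatory receptor, was at 11.04 and 30.0 CPM in unstimulated wildtype A and B and at 0.157 and 0 CPM in unstimulated KO libraries, with adjusted p values of 0.871 and 0.00909. Clec7a, the β-glucan receptor dectin-1, was at 6.61 and 22.5 CPM in unstimulated wildtype and at most 2.31 CPM in the other groups (3.96, adjusted p = 0.761, and 0.0132 with the block), and DESeq2 called it without the block (0.0444).

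Fabp4, a fatty acid-binding protein of macrophages, rose with stimulation in both genotypes, from 0.726 and 1.53 to 52.3 and 73.1 CPM in wildtype and from 6.20 and 13.8 to 55.4 and 141 CPM in KO cells (−2.38, adjusted p = 0.871, and 0.00182 with the block). Lif, a cytokine of the interleukin-6 family, was at 17.4 and 244 CPM in stimulated wildtype A and B and at 34.8 and 27.7 CPM in stimulated KO libraries (−5.98, adjusted p = 0.894, and 0.00451 with the block). Unstimulated wildtype library A held 2 and library B 1 count of Lif, on which the size of this value rests, and the stimulated groups overlapped. The chemokine Cxcl14 was at 20.5 to 58.3 CPM in the unstimulated libraries, 0.149 and 0.0563 CPM in stimulated wildtype and 0.871 and 1.57 CPM in stimulated KO libraries (3.18, 0.0485 with the block), where the wildtype libraries held 2 and 1 counts.

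Letters differed more in wildtype than in KO cells. Over 11045 genes with a mean log2 CPM over 1, libraries A and B differed by more than 2-fold for 4.31% of genes in unstimulated and 7.47% in stimulated wildtype cells, against 2.06% and 2.92% in KO cells. The A minus B differences of the 2 states correlated across genes with r = 0.434 in wildtype and 0.209 in KO cells, and between genotypes with r from −0.115 to −0.006. These are correlations across genes, which are not independent, and rest on 1 pair of differences a genotype.

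In 21 of the 22 gene lists examined, 0 members passed without the block by edgeR. Of the 484 distinct genes tested in these 21 lists, 47 had an unadjusted p under 0.05, 5 passed with the block and 9 by DESeq2. Over all 19569 genes tested, 1079 had an unadjusted p under 0.05 and 57 (0.291%) passed with the block. DESeq2 called 0.776% of the 11602 genes to which it gave an adjusted p. Among the lists of stress and lipid metabolism, sterol synthesis and uptake had the lowest median after the unfolded protein list, at −0.52, with 21 of 23 genes negative and 0 called by edgeR with or without the block or by DESeq2 (7 at an unadjusted p under 0.05). Idi1 and Fdps of this pathway were at −0.98 and −0.91. The NRF2 targets had a median of 0.10, the hypoxia-responsive genes −0.20 and the p53 targets −0.31, with 0 called with the block. Fth1, the ferritin heavy chain, was at −0.64, which DESeq2 called (adjusted p = 0.026) and neither fit of edgeR did. Car12, a carbonic anhydrase of the hypoxia list, was at −1.51 (adjusted p = 0.871, and 0.0613 with the block).

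In the lists of central metabolism, the tricarboxylic acid (TCA) cycle and itaconate genes had a median of −0.31 with 17 of 22 negative, and Idh1 (−0.82) and Suclg2 (−0.75) were the farthest from 0 without passing. The pyruvate dehydrogenase complex and lipoate genes had a median of −0.13. Gcsh was the single call, by edgeR with the block and by DESeq2 without it. Glycolysis had a median of −0.17, nuclear complex I subunits −0.17 with 28 of 36 negative, mitochondrially encoded subunits −0.06, denitrosylation and aldo-keto reductases −0.24, and arginine and nitric oxide metabolism −0.06. Lipt2, a lipoate transferase, was at −1.15. Pfkp of glycolysis was at −0.99 and Gapdh, whose reads can be shared with many pseudogenes and are uncertain, at 2.20. Ndufb11 and Ndufc1 of complex I were at −0.47 and −0.54. None of these genes passed in either fit of edgeR, and DESeq2 called Pfkp among them (adjusted p = 0.0321). Among the mitochondrial genes, mt-Co2 was at −1.11. DNA replication genes had a median of 0.25 with 28 of 36 positive and 0 called by edgeR or DESeq2, and Ccne2 (1.13) and Prim1 (1.09) were the highest. They fell with stimulation in both genotypes (medians −4.0 in wildtype and −3.61 in KO cells). Leaving out stimulated wildtype library B turned that median of 0.25 to −0.02.

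In the lists of immune function, the median was 0.02 for inflammatory cytokines (Lif called with the block), −0.50 for chemokines (Cxcl14), 0.15 for interferon-stimulated genes, −0.11 for antigen presentation and co-stimulation, 0.05 for alternative activation markers, 0.01 for phagocytosis and scavenger receptors (Clec7a), −0.07 for endocytosis and 0.33 for matrix metalloproteinases and their inhibitors. Leaving out stimulated wildtype library B turned the chemokine median to 0.68 and the cytokine median to 0.83. The chemokine gene Ccl2 was at 2566 and 105 CPM in stimulated wildtype A and B and at 2372 and 2853 CPM in stimulated KO libraries. Il36g, a cytokine of the interleukin-1 family, was at 215 and 72.9 CPM in stimulated wildtype and 81.0 and 43.8 CPM in stimulated KO libraries, and Tgtp1, an interferon-induced GTPase, at 5.21 and 5.12 CPM and at 15.6 and 51.4 CPM. The collagenase gene Mmp13 was at 5.88 and 12.0 CPM in stimulated wildtype and 19.0 and 41.9 CPM in stimulated KO libraries, and its response difference did not pass in either fit of edgeR (adjusted p = 1). Eea1, a tether of early endosomes, was at −0.70, which DESeq2 called (adjusted p = 0.00285) and neither fit of edgeR did. Axl, an efferocytosis receptor, was at 53.4 and 39.9 CPM in the wildtype A libraries and under 0.7 CPM in the other 6.

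**Figure D4:**
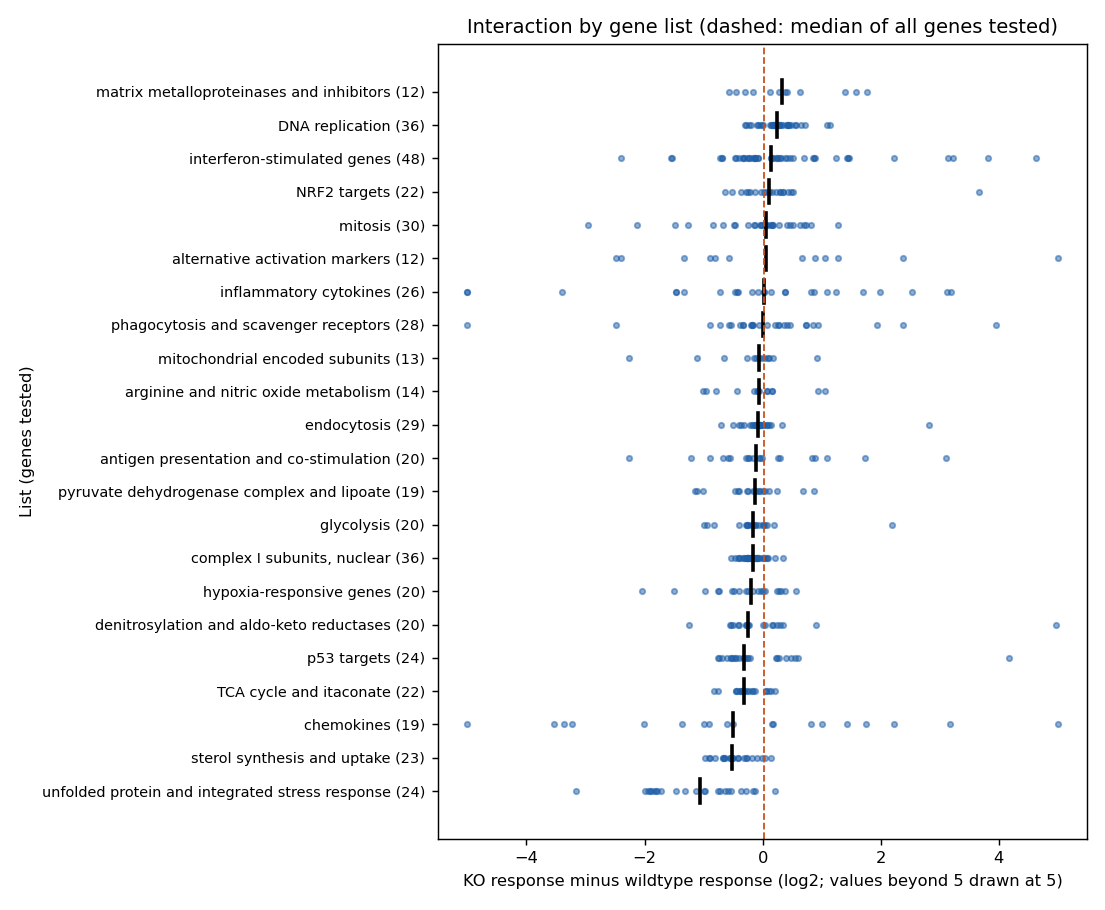
Response differences (log2, horizontal axis) of the members of 22 gene lists, 1 point a gene, with a black bar at each list's median, the number of genes tested in parentheses and a dashed line at the median of all genes tested (0.0292). The unfolded protein list has the lowest median, −1.06, and the other medians lie between −0.52 and 0.33.

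The knocked-out gene and the genes of proteins measured in the study did not pass. The response difference of Akr1a1 was 0.91 ± 1.09 (SE, adjusted p = 0.961) and turned to −0.0533 without both unstimulated B libraries. Nos2 rose in both genotypes, with a response difference of −0.96 ± 0.99 (SE, adjusted p = 0.948). Acod1, the enzyme that makes itaconate, reached 5844 and 6217 CPM in stimulated wildtype and 5729 and 7298 CPM in stimulated KO libraries, with a response difference of −0.16 ± 0.33 (SE).

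Il6 had 0 counts in the unstimulated libraries, was at 31.9 and 180 CPM in stimulated wildtype A and B and at 163 and 23.6 CPM in stimulated KO libraries, so the groups overlapped and the order of the letters was reversed between genotypes. Cd86, a costimulatory ligand, was at 11.4 and 36.9 CPM in stimulated wildtype and 42.3 and 22.0 CPM in stimulated KO libraries (adjusted p = 1). Dlat, the lipoate-carrying subunit of pyruvate dehydrogenase, had a response difference of −0.07 ± 0.20 (SE), and Adgre1, the macrophage marker F4/80, of 0.58 ± 0.39 (SE). Mrc1 and H2-Eb1 were at most at 0.901 and 1.07 CPM in any library, and H2-Aa and H2-Ab1 had under 10 counts in total, so no response difference was detectable at this depth.

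**Figure D5:**
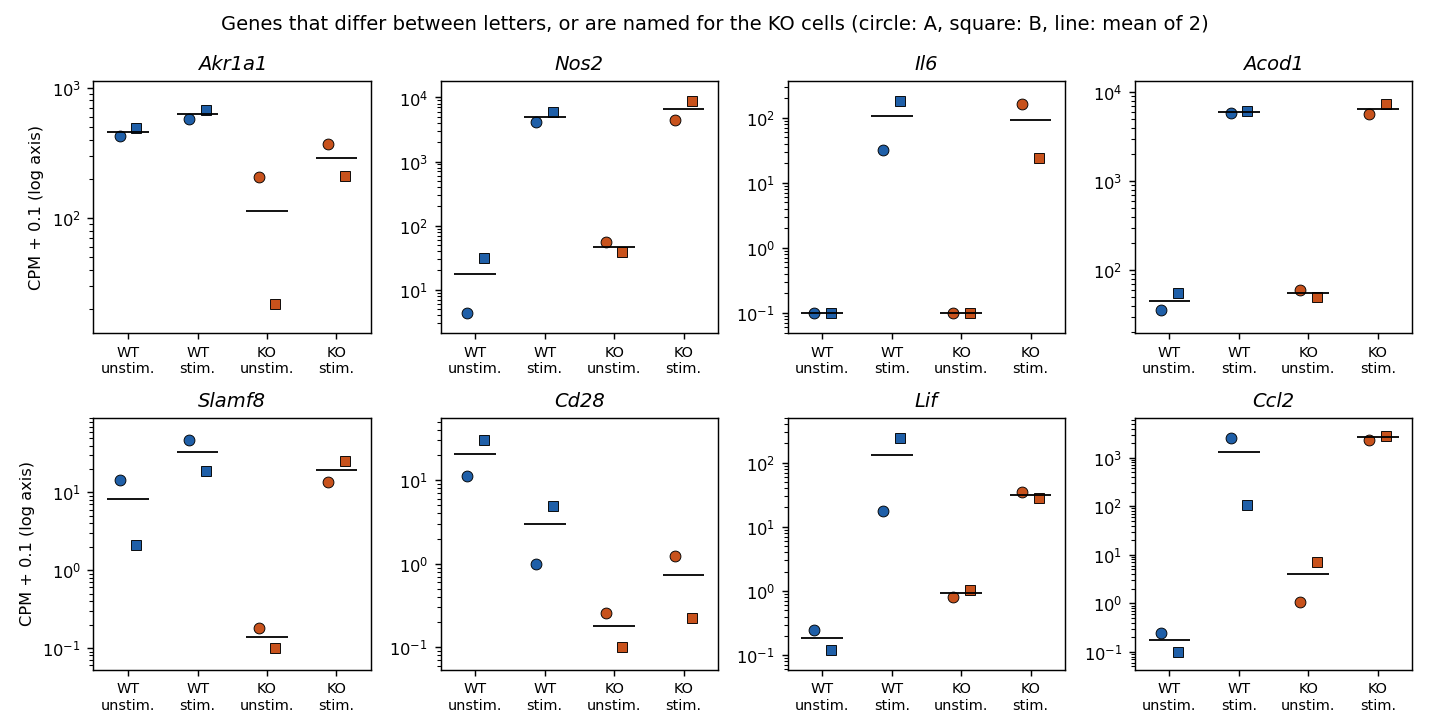
CPM plus 0.1 on a log axis of 8 genes in each library, drawn as circles (letter A) and squares (letter B) with a line at the mean of 2, for wildtype (blue) and Akr1a1 KO cells (orange). Il6, Lif and Ccl2 differ by 5-fold or more between letters in stimulated wildtype cells, and Slamf8 and Cd28 are near 0 in both unstimulated KO libraries.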

How the data were processed

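RNA was sequenced from polyA-enriched libraries. Per the methods and the submitters' processing notes, the authors used CASAVA and STAR with mm10. The counting tool is not given in the sources used here. The deposited values are whole-number counts per gene without normalization. Gene positions in the table matched GENCODE M21 (GRCm38) in start and end for 346 of 18829 genes, so GRCm38 positions were taken from GENCODE by gene ID. Genes reaching 10 counts over the 8 libraries were TMM-scaled and fitted with 1 mean per group by edgeR 4.0.16 (R 4.3.3), with quasi-likelihood F tests (2-sided) and Benjamini-Hochberg adjustment over all genes, called at an adjusted p under 0.05. The fit was repeated with the letter as a block within genotype. The letters were not shown to pair libraries, since no source ties a letter to a clone across states. Without the block, p-values measure the spread between 2 libraries a group. With it, they measure what remains of that spread once a constant difference between letters within a genotype is removed. CPM use TMM library sizes. DESeq2 1.42.0 and limma 3.58.1 served as alternatives. The edgeR fits were also run on counts simulated with a common dispersion and no difference between letters. That run cannot show how the block performs where letters differ, as they do here.

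The genes and lists were chosen with earlier results of these data known. Named were genes of the knockout and of the proteins measured in the study, the 12 protein-coding genes a direction with the largest difference (mean log2 CPM over 1), filled up by lowest p where fewer passed, the 6 of lowest p a direction that passed with and without the block, and per list those passing or the 2 largest. List members near 0 CPM were left unnamed. Other genes called with the block or by DESeq2, the promoter search and the emphasis on ER genes were chosen after values were seen.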

Additional observations from a re-analysis of the deposited data

Results flagged for a closer look

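Of the genes described above, 4 responded to stimulation differently in the 2 genotypes by edgeR's test of the interaction without the block. Serinc3 had a response difference of 2.79 on the log2 scale, and the directions in the 2 genotypes were opposite. Sdf2l1 (−1.95), Pdia4 (−2.0) and Aldh1l2 (−3.17) fell further in KO cells, from a higher level before stimulation. With 2 libraries a group no test for an outlying library was made.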

How the results depend on the processing

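The number of genes with a response difference, 4 as reported, was 57 with the replicate block within genotype, 2 with the block over all groups, 90 by DESeq2, 1 by limma voom (Serinc3), 2 with DESeq2 size factors in edgeR, 1 after edgeR's filterByExpr, 285 with no filter on counts (107 positive and 178 negative), 1 among protein-coding genes only, 2 with libraries thinned to the lowest total, 4 with an absolute log2 value over 1 as well, 0 without both unstimulated B libraries, and 0 to 14 with each library left out. Chosen after seeing the data, the block gave 75 genes with DESeq2 size factors and 119 by DESeq2. KO against wildtype in unstimulated cells, 114 genes as reported, gave 586 with the replicate block within genotype (667 with DESeq2 size factors and 562 by DESeq2 as well), 406 by DESeq2, 846 with no filter, 8 without both unstimulated B libraries, and 22 to 177 with each library left out. In stimulated cells the 56 genes became 620 with the block (722 and 615 likewise), 480 by DESeq2, 33 by limma voom, 1015 with no filter, 14 without both unstimulated B libraries, and 6 to 108 with each library left out. The response to stimulation was 7377 genes in wildtype (5220 to 7187 with each library left out) and 7675 in KO cells (5267 to 8394). Without both unstimulated B libraries it was 4158 and 4497, and with an absolute log2 value over 1 the wildtype count was 4778. A further limit on size can only lower a count. The cause of the other changes was not tested.

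The 4 genes called kept their direction under every alternative. Of the other genes named, the response difference turned to 0.60 for Mrc1 and −0.0533 for Akr1a1 without both unstimulated B libraries and to 1.53 for H2-Eb1 with thinned libraries. Other reversals came from leaving out 1 library: Mrc1 ranged from −3.41 to 0.61, Cd86 from −5.25 to 0.64, Il6 from −2.20 to 1.54, Slc7a11 from −1.06 to 0.76, Atf3 from −0.15 to 0.54, Acod1 from −0.51 to 0.11 and Dlat from −0.296 to 0.0791, Mmp9 from −0.80 to 2.40, Axl from −11.42 to 0.27, and none of these genes passed in those fits. The median of the unfolded protein list stayed between −1.23 and −1 under the block, other size factors and each library left out, and was −1.21 without both unstimulated B libraries, a fit in which 0 members passed. Where a library was left out, the lone library of its group was assumed to vary like the others. With 2 libraries a group, low counts near 0 CPM and 2 residual degrees of freedom under the block, single calls under the block are the least certain.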

Other observations

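Of the 57 genes called with the block, 8 lie on chromosome 2, which holds 7.58% of the genes tested. They are Serinc3, Tmx4, Bcl2l1, Pdia3, Bub1b, Hspa5, Lrp4 and Olfm1, and this count was made after the values were seen. Lrp4, a receptor of the LDL receptor family, was at 15.7 and 16.7 CPM in unstimulated wildtype, 21.4 and 11.5 CPM in stimulated wildtype, 6.20 and 3.79 CPM in unstimulated KO and 22.2 and 23.0 CPM in stimulated KO libraries. Olfm1, a secreted olfactomedin, was at 201 to 291 CPM in the wildtype libraries and unstimulated KO libraries together and at 46.3 and 89.0 CPM in stimulated KO libraries.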
